A study of Homo sapiens with 27 samples.

Results

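The lower steps of glycolysis and the fermentation step that follows it were examined through 9 genes, TPI1, GAPDH, PGK1, PGAM1, ENO1, ENO2, PKM, LDHA and LDHB. They were chosen by symbol as the enzymes that lead from the triose phosphates to lactate, not by a measured value, but with earlier results of these data known. All 9 were found in each of the 4 count tables among the 20268 genes that were listed. These enzymes turn triose phosphates into pyruvate and return ATP and NADH on the way, and lactate dehydrogenase then reduces pyruvate to lactate and restores NAD+. Lactate dehydrogenase is a tetramer built from the LDHA and LDHB subunits, and enolase exists as the widespread ENO1 form and as ENO2, known as neuron-specific enolase. CPSF1 belongs to the complex that cuts and polyadenylates nascent mRNAs, which recognizes the AATAAA signal upstream of a poly(A) site and directs cleavage there.

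To determine where transcripts end when CPSF1 is lost, the study sequenced poly(A) ends by PAC-seq (poly(A)-ClickSeq), in which each read marks the junction of a transcript with its poly(A) tail. LNCaP cells are hormone-sensitive prostate cancer cells, and LNCaP95 and 22Rv1 cells are hormone-insensitive. Lentivirus carried CTRL sh, a control shRNA, or CPSF1 sh1 or CPSF1 sh2, which target CPSF1, into each line, and infected cells were selected in puromycin, with 3 libraries per group and 27 in all. LNCaP95 cells were kept in phenol red-free medium and the other lines were not, so line and medium cannot be told apart. CPM denotes reads scaled to a common library total. Because PAC-seq yields 1 read per poly(A) end, counts were not scaled by transcript length. Nothing in the labels ties the 3 libraries of a group to separate transductions, so p-values measure the spread between these libraries.

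Reads had been counted per gene in the 3′ UTR extended by 300 bases, the introns, the coding exons (CDS) and the 10 kb downstream region. Libraries held 3452413 to 12425417 reads over the 4 tables, of which 1725670 to 6549383 fell in 3′ UTRs and 170330 to 728430 in the 10 kb regions. CPSF1 itself, the targeted gene, had a lower 3′ UTR count in all 6 knockdown libraries than in all 3 controls of each line, with log2 fold changes of -1.19 for LNCaP (edgeR adjusted p = 8.31e-05), -1.05 for LNCaP95 (0.000301) and -0.73 for 22Rv1 (0.0164). All 9 luminal prostate markers examined exceeded 10 CPM in the controls of each line, none of the 3 basal markers did, and at most 2 of 6 neuroendocrine and 1 of 5 stromal markers did in any line. The summed luminal markers were lower after knockdown in LNCaP, with 4880 to 4971 CPM in controls and 3534 to 3683 CPM in knockdown libraries, and in LNCaP95, with 6802 to 7174 and 4211 to 4980 CPM, whereas 22Rv1 had 2794 to 3069 and 2749 to 3091 CPM. Their part in the results was not tested. In these bulk RNAs, fewer cells of a kind and less RNA per cell cannot be told apart.

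Some annotated ends of the genes whose downstream reads are compared here carried a canonical poly(A) signal. These are shown in 30-base windows of the GRCh37 sense strand with the signal hexamer in capitals. Reads were counted per region, so whether these signals are used in these cells was not tested. AATAAA, or failing that ATTAAA, was searched in the last 50 bases before each annotated transcript end. The 2 LDHA windows, at chr11:18429370-18429399 and chr11:18429736-18429765, hold the signals of ends 371 bases apart, neither of which is the furthest LDHA end, and another LDHA end with AATAAA, at 18428705, is not shown. The 2 PGK1 windows, at chrX:77381739-77381768 and chrX:77384766-77384795, hold the signals of ends 3032 bases apart. Windows are placed by the hexamer, so some run a few bases past the annotated end. The LDHB, ENO1 and ENO2 windows lie at chr12:21788276-21788305 (minus strand), chr1:8921065-8921094 (minus strand) and chr12:7032834-7032863.
LDHA AATAAA end: acccccAATAAAccttgaacagtgactact
LDHA ATTAAA end: gtaacaATTAAAaacaatcttaaggcaggg
LDHB: tgaacaAATAAAattaactattgtagtgtg
PGK1 AATAAA end: gtaaacAATAAAagtgtccattgaaaccgt
PGK1 furthest end: agatatATTAAAatgtaaatggtggcatac
ENO1: gctcaaAATAAAaagcctcagtgacccatg
ENO2: acctccATTAAAgtctgaatcagtgcactg

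At the furthest annotated end, 5 of the 9 genes (GAPDH, PGAM1, ENO1, PKM and LDHB) had AATAAA, PGK1 and ENO2 had ATTAAA, and TPI1 and LDHA had neither. Over the 19530 genes with a 3′ UTR region, the shares were 59.4%, 13.5% and 27.1%. The furthest LDHA end lay 207 bases beyond its ATTAAA end, and the furthest TPI1 end 120 bases beyond an AATAAA end. All of these ends fall inside the counted 3′ UTR regions, so a shift between them, such as between both PGK1 ends, does not appear in the counts. The 3′ UTR regions of LDHA, PKM and ENO2 were built from 28, 19 and 12 pieces, some of them inside the gene, because alternative transcripts end there. PKM1 and PKM2, the splice forms of pyruvate kinase, share their 3′ UTR and were not separated.

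3′ UTR reads were called lower by edgeR for most of these enzymes in LNCaP95, for fewer in LNCaP and for PGK1 alone in 22Rv1, where 7 of the 9 changes were below 0 and LDHA narrowly missed the threshold. All 9 genes passed the expression filter in each line. Of the 9, 8 were lower in LNCaP95, 4 were lower in LNCaP and 1 was lower in 22Rv1 (adjusted p under 0.05 in edgeR), and none was higher. Among all genes tested the background of lower calls was 15.2%, 10.1% and 0.791% in the same order, and that of higher calls 15.2%, 8.24% and 0.678%. The median log2 fold change of the 9 genes was -0.85 in LNCaP95, -0.38 in LNCaP and -0.17 in 22Rv1, against medians over all genes of 0.01, 0.02 and -0.01.

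**Figure D1:**
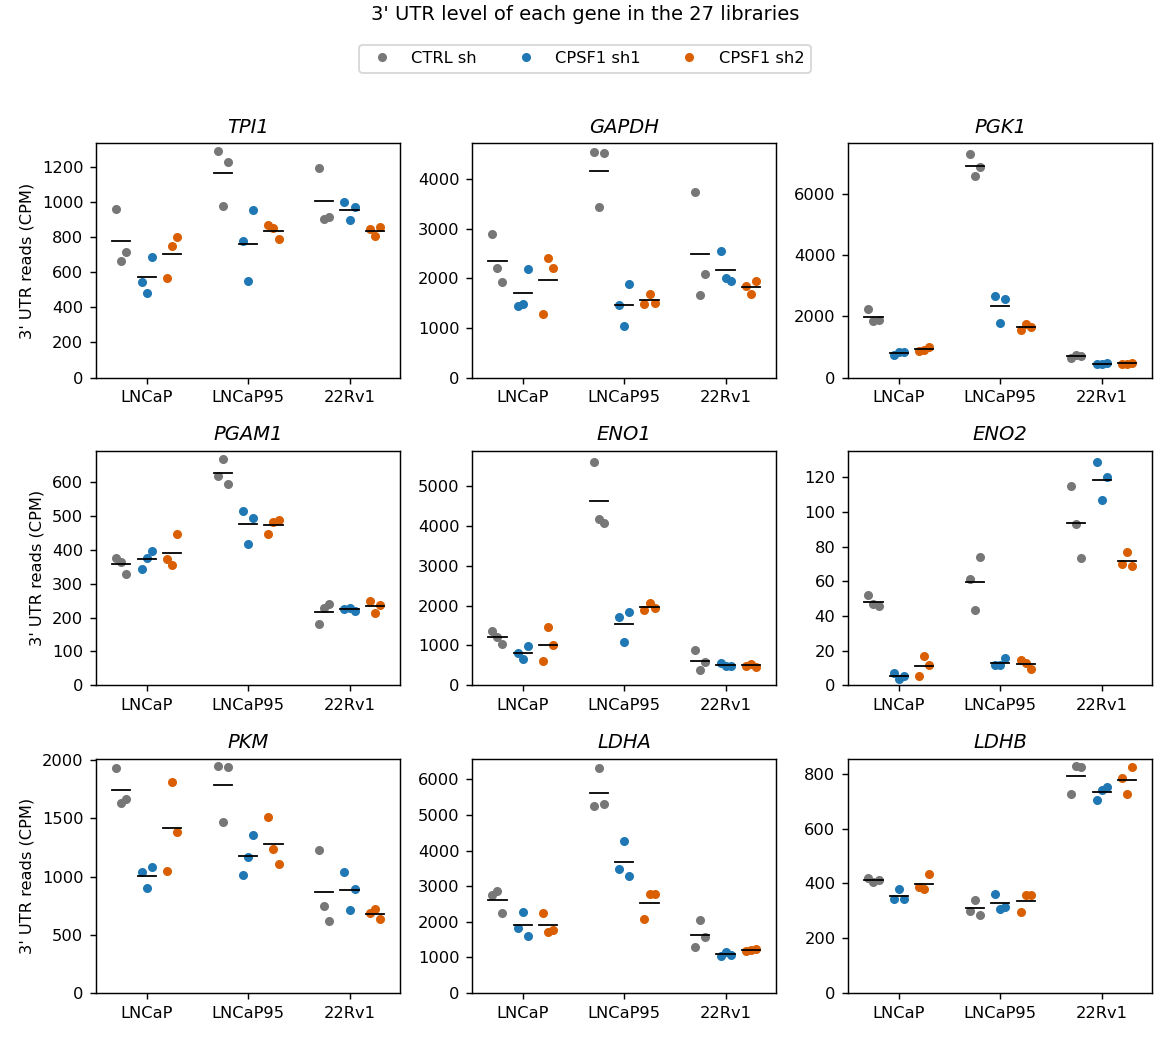
Each panel plots the 3′ UTR count of 1 gene in CPM (linear axis from 0) for the 27 libraries, 1 point each, grouped by cell line and coloured by shRNA, with black bars for group means. In LNCaP95 the control points of PGK1, ENO1 and GAPDH stand well above both shRNA groups, LDHB points overlap in every line, and ENO2 falls in LNCaP and LNCaP95 but not in 22Rv1.

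TPI1, the isomerase that interconverts the triose phosphates, fell in LNCaP95 from 1165 ± 168.2 CPM (SD, n = 3) to 798.6 ± 137 CPM (n = 6), or by -0.54 on the log2 scale (SE 0.152, edgeR adjusted p = 0.0119). No knockdown library reached the lowest control, but the call was lost without LNCaP95 CTRL replicate 1 (-0.46, adjusted p = 0.0834) or replicate 3 (-0.50, 0.0594) and without TMM factors, edgeR's correction for library composition (-0.39, 0.054). In LNCaP and 22Rv1 the changes of -0.27 and -0.17 did not pass.

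GAPDH, which oxidizes glyceraldehyde 3-phosphate and yields NADH, had 4545, 3438 and 4519 CPM in the LNCaP95 controls, 1459, 1049 and 1886 CPM with CPSF1 sh1 and 1479, 1684 and 1513 CPM with CPSF1 sh2. The groups did not overlap, and the log2 change was -1.46 (SE 0.152, edgeR adjusted p = 1.91e-06). In LNCaP, 3 of 6 knockdown libraries were under every control and the change of -0.34 did not pass (adjusted p = 0.223). The 22Rv1 controls alone ranged from 1655 to 3740 CPM, and the change of -0.33 was within that spread. GAPDH has many processed pseudogenes, and how the authors' counting treated reads that fit several copies is not given in the sources used here, which makes its absolute level uncertain. The same holds for PGK1, PGAM1 and LDHA, which have close paralogs or retrocopies.

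PGK1, the kinase of the first ATP-yielding step, was the one enzyme of the 9 whose 3′ UTR count was called lower in all 3 lines by edgeR. LNCaP95 controls had 7294, 6570 and 6877 CPM, CPSF1 sh1 libraries 2647, 1790 and 2547 CPM, and CPSF1 sh2 libraries 1548, 1732 and 1651 CPM. LNCaP controls had 2251, 1835 and 1886 CPM, CPSF1 sh1 libraries 734.5, 842.5 and 836.5 CPM, and CPSF1 sh2 libraries 860.8, 913.5 and 986.2 CPM. 22Rv1 started lowest, at 638.1, 729.3 and 702.6 CPM, and had 458.6, 440.4 and 460.8 CPM with CPSF1 sh1 and 454.3, 455.2 and 478.9 CPM with CPSF1 sh2. No knockdown library overlapped a control in any line, whereas 14.3%, 11.4% and 4.11% of all genes lay below all controls in LNCaP95, LNCaP and 22Rv1. The log2 fold changes were -1.80 (SE 0.157, edgeR adjusted p = 2.93e-07), -1.19 (SE 0.114, 1.3e-06) and -0.60 (SE 0.0986, 0.00501).

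PGAM1, the mutase that moves the phosphate of 3-phosphoglycerate, changed least among the genes called in LNCaP95. Its level was 627.9 ± 36.74 CPM in controls and 474.5 ± 36.48 CPM after knockdown (-0.40, SE 0.119, edgeR adjusted p = 0.0165), with all 6 knockdown libraries below the controls. That call was lost without LNCaP95 CTRL replicate 1 (adjusted p = 0.0562) or replicate 2 (0.0707) and without TMM factors (-0.25, 0.146). In LNCaP (0.11) and 22Rv1 (0.08) its changes did not pass.

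The enolases, which make phosphoenolpyruvate, moved differently by line. ENO1 had 5613, 4176 and 4068 CPM in LNCaP95 controls, 1709, 1074 and 1850 CPM with CPSF1 sh1 and 1891, 2072 and 1944 CPM with CPSF1 sh2 (-1.39, SE 0.166, edgeR adjusted p = 9.03e-06), again without overlap. Its changes of -0.38 in LNCaP (adjusted p = 0.197) and -0.30 in 22Rv1 did not pass, and without LNCaP CPSF1 sh2 replicate 2 the LNCaP value passed (-0.56, 0.0113).

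ENO2 was the least abundant of the 9 in each line's controls and had the largest fold change of them in LNCaP and LNCaP95. In LNCaP it had 52.01, 46.8 and 45.57 CPM in controls, 7.044, 3.778 and 5.301 CPM with CPSF1 sh1, and 5.384, 16.62 and 11.64 CPM with CPSF1 sh2 (-2.62, SE 0.28, edgeR adjusted p = 4.14e-06). LNCaP95 controls had 61.36, 43.15 and 74.24 CPM, CPSF1 sh1 libraries 11.79, 11.93 and 15.51 CPM, and CPSF1 sh2 libraries 14.29, 12.62 and 9.431 CPM (-2.24, SE 0.184, adjusted p = 1.34e-07). In both lines every knockdown library was below every control. 22Rv1 was different: controls had 114.8, 93.16 and 73.38 CPM, CPSF1 sh1 libraries 128.8, 107.1 and 119.9 CPM, and CPSF1 sh2 libraries 69.85, 76.59 and 68.84 CPM. There both shRNAs together gave 0.03 (adjusted p = 0.971), with 2 CPSF1 sh1 libraries above the highest control and 2 CPSF1 sh2 libraries below the lowest.

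PKM, which makes pyruvate, fell in LNCaP95 from 1787 ± 274.5 to 1232 ± 179.2 CPM (-0.53, SE 0.141, edgeR adjusted p = 0.00813) and in LNCaP from 1743 ± 162.4 to 1210 ± 335.6 CPM (-0.51, SE 0.169, 0.0411). In each of these lines 5 of 6 knockdown libraries were below all controls. The LNCaP95 call was lost without CTRL replicate 1 (adjusted p = 0.0606) or replicate 3 (0.0566). The LNCaP call was lost when any 1 of 7 libraries was left out, namely each control, each CPSF1 sh1 library and CPSF1 sh2 replicate 1 (adjusted p from 0.072 to 0.184). In 22Rv1 the change of -0.15 did not pass.

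The lactate dehydrogenase subunits differed from each other. LDHA, which predominates where lactate is made, had 5251, 6317 and 5296 CPM in LNCaP95 controls, 3479, 4259 and 3286 CPM with CPSF1 sh1 and 2069, 2768 and 2779 CPM with CPSF1 sh2 (-0.85, SE 0.165, edgeR adjusted p = 0.000812). In LNCaP it had 2747, 2862 and 2235 CPM in controls, 1833, 2277 and 1592 CPM with CPSF1 sh1 and 2251, 1707 and 1766 CPM with CPSF1 sh2 (-0.44, SE 0.133, adjusted p = 0.0262). LNCaP groups overlapped, and this call was lost without CTRL replicate 1, CTRL replicate 2, CPSF1 sh1 replicate 1 or CPSF1 sh1 replicate 3 (adjusted p from 0.0537 to 0.133) and without TMM factors (-0.32, 0.119). In 22Rv1 all 6 knockdown libraries, at 1050 to 1242 CPM, lay below the controls of 1299, 2042 and 1575 CPM, with a change of -0.52 that narrowly missed the threshold (SE 0.127, adjusted p = 0.0523). It passed in DESeq2 (adjusted p = 0.0113), with no filter on low counts (0.0397), with library sizes taken from all 4 tables together (-0.62, 0.0363), and without 22Rv1 CTRL replicate 1 (-0.66, 0.00409) or CPSF1 sh1 replicate 1 (0.0486).

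LDHB, the subunit that predominates in tissues that use lactate, gave 3′ UTR values that overlapped in each line. Controls had 420.6, 403.4 and 410.7 CPM in LNCaP, 299.7, 340.2 and 285.6 CPM in LNCaP95 and 726.3, 827.6 and 824.2 CPM in 22Rv1. Knockdown libraries ranged from 343.9 to 432.6, from 294.7 to 361.7 and from 703 to 826.1 CPM. The log2 fold changes were -0.11 (SE 0.113, edgeR adjusted p = 0.539), 0.11 (SE 0.127, 0.533) and -0.08 (SE 0.103, 0.81).

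The 3′ UTR change was compared between lines as a line-by-knockdown term. Of the 9 genes, 4 fell further in LNCaP95 than in LNCaP (background 4.41%), which were GAPDH, PGK1, PGAM1 and ENO1, and 5 fell further in LNCaP95 than in 22Rv1 (background 5.3%), which were those 4 and ENO2. The largest of these 3′ UTR terms was that of ENO2 in 22Rv1 against LNCaP, at 2.68 (SE 0.364, edgeR adjusted p = 1.1e-05), the 1 gene of 9 with a higher term there (background 3.14%). The terms of TPI1, PKM, LDHA and LDHB in the 3′ UTR did not pass in any pair of lines. PGAM1 and PGK1 were the closest to the threshold in LNCaP95 against LNCaP, and neither passed without TMM factors (adjusted p = 0.0699 and 0.0548). PGAM1 in LNCaP95 against 22Rv1 also did not pass without TMM factors (0.119) or with summed library sizes (0.087), nor with the replicate number as a block (0.0629).

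Each shRNA was also set against the controls alone. CPSF1 sh1 lowered PGK1, ENO2 and PKM in LNCaP (background 8.88%) and 7 genes in LNCaP95 (background 10.4%), all of those called with both shRNAs except PGAM1 (edgeR adjusted p = 0.0503). CPSF1 sh2 lowered PGK1 and ENO2 in LNCaP (background 7%) and 7 genes in LNCaP95 (background 13.1%), where TPI1 was the exception (0.0645). In 22Rv1 each shRNA lowered PGK1 alone, against backgrounds of 0.183% and 2.06%. Both contrasts share the controls, so the shRNAs were also compared directly, and no gene of the 9 passed in any line (edgeR, background of higher and lower calls 0% and 0.0363% for LNCaP, 0% and 0% for LNCaP95, and 0.0348% and 0.0174% for 22Rv1). The closest was ENO2 in 22Rv1, at 0.35 with CPSF1 sh1 and -0.37 with CPSF1 sh2, a difference of -0.72 (unadjusted p = 0.000356, adjusted p = 0.134, edgeR). For PGK1 in LNCaP95 the shRNAs gave ranges of 1790 to 2647 and 1548 to 1732 CPM that did not overlap. Other genes separated as well, among them LDHA and ENO1 in LNCaP95, PGK1 in LNCaP and ENO2 in 22Rv1. The share of all genes that separate in this way was not taken, so no difference between shRNAs is read from it.

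In the 10 kb downstream regions, LDHA and LDHB rose in all 3 lines. Each shRNA alone raised both of them in each line, against backgrounds of 7.2%, 14.1% and 4.63% with CPSF1 sh1 and 9.36%, 15.7% and 8.39% with CPSF1 sh2 in LNCaP, LNCaP95 and 22Rv1. PGK1 rose in LNCaP95, and ENO2 fell in LNCaP and LNCaP95. Of the 9 genes, 2, 3 and 2 were called higher in LNCaP, LNCaP95 and 22Rv1 (background 9.52%, 17.6% and 7.25%), and 1, 1 and 2 lower (background 5.2%, 10.1% and 2.77%). Their median log2 fold change was 0.22, 0.57 and 0.08, and that of all 10 kb regions 0.13, 0.22 and 0.19. Library sizes here were those of the single table. When summed over the 4 tables instead, the median over all 10 kb regions became 0.62, 1.11 and 0.73, and the share of higher among all calls rose from 64.7%, 63.6% and 72.4% to 94.3%, 95.6% and 97.9%. Without TMM factors these shares were 84.2%, 80.1% and 92.6%.

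**Figure D2:**
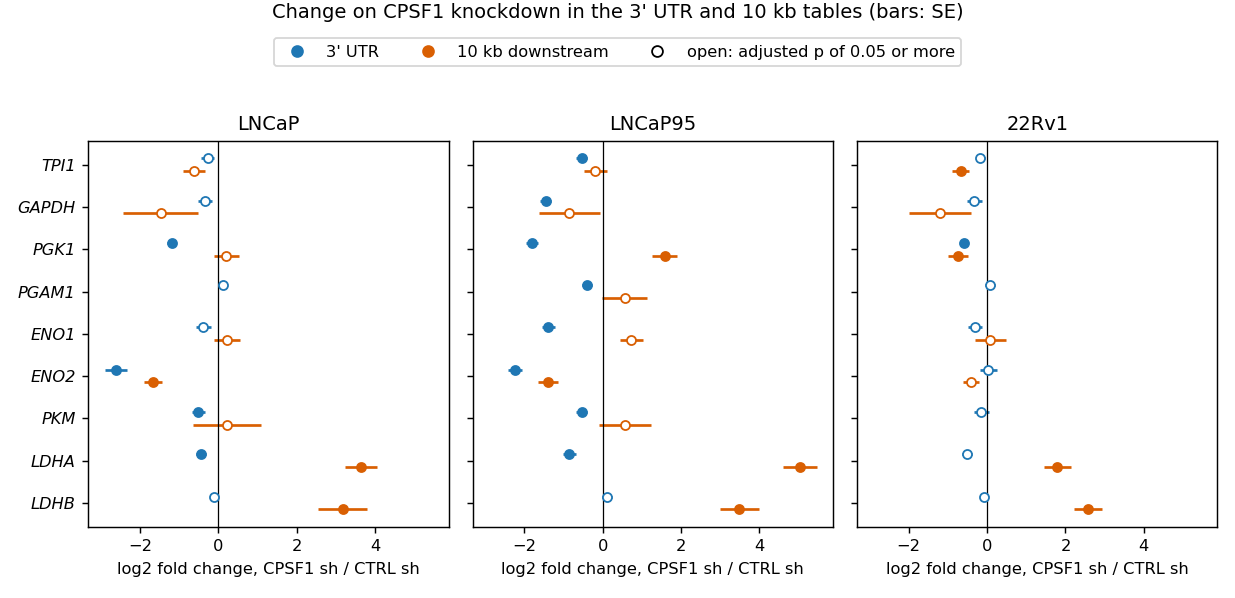
Log2 fold change of knockdown over control for each gene (x axis) in the 3′ UTR table (blue) and the 10 kb table (orange), 1 panel per line, with bars for the SE, filled points for an edgeR adjusted p under 0.05 and open points otherwise. LDHA and LDHB have filled orange points right of 0 in each line, whereas ENO2 has both points left of 0 in LNCaP and LNCaP95. PGAM1 in LNCaP and 22Rv1 and PKM in 22Rv1 have no 10 kb point because every control held at most 3 reads.

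The 10 kb region of LDHA (chromosome 11, 18430272 to 18440271) was nearly empty in controls. In LNCaP it held 8, 2 and 2 reads in controls, 45, 34 and 62 with CPSF1 sh1 and 93, 67 and 107 with CPSF1 sh2. LNCaP95 had 3, 6 and 0 reads in controls, 157, 180 and 203 with CPSF1 sh1 and 154, 213 and 200 with CPSF1 sh2. 22Rv1 had 5, 2 and 19, then 58, 45 and 94, then 105, 75 and 81 reads. All 6 knockdown libraries were above all 3 controls in each line, as for 10.1%, 18.2% and 11.9% of all 10 kb regions in LNCaP, LNCaP95 and 22Rv1. The log2 fold changes were 3.65 (SE 0.403, edgeR adjusted p = 6.29e-14), 5.04 (SE 0.426, 9.45e-18) and 1.79 (SE 0.344, 4.35e-05). The LNCaP95 change exceeded that of 22Rv1 by 3.24 (adjusted p = 0.000195, background of higher terms 2.39%). With controls this low, the sizes rest on few reads.

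LDHB, whose 3′ UTR count did not pass in any line, rose in its 10 kb region (chromosome 12, minus strand, 21777977 to 21787976). LNCaP controls held 4, 1 and 0 reads, CPSF1 sh1 libraries 22, 9 and 23, and CPSF1 sh2 libraries 44, 6 and 29. LNCaP95 controls held 1, 1 and 6 reads, CPSF1 sh1 libraries 47, 81 and 32, and CPSF1 sh2 libraries 65, 55 and 52. 22Rv1 controls held 4, 4 and 9 reads, CPSF1 sh1 libraries 67, 49 and 66, and CPSF1 sh2 libraries 143, 102 and 109. The groups did not overlap in CPM in any line, and the log2 fold changes were 3.18 (SE 0.624, edgeR adjusted p = 2.93e-05), 3.49 (SE 0.496, 1.57e-08) and 2.57 (SE 0.365, 1.15e-08). A protein-coding model of a newer Gencode annotation, ENSG00000285854, spans this entire region on the same strand (21689137 to 21810732), and its part in the reads was not tested.

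For PGK1 the 10 kb region (chromosome X, 77385093 to 77395092) behaved differently by line. LNCaP95 rose from 12, 26 and 16 reads in controls to 94, 110 and 57 with CPSF1 sh1 and 112, 137 and 90 with CPSF1 sh2 (1.58, SE 0.324, edgeR adjusted p = 6.16e-05), without overlap. LNCaP did not pass (0.20, adjusted p = 0.755), with 15, 32 and 17 reads in controls and 17 to 56 after knockdown. In 22Rv1 the region was called lower (-0.74, SE 0.254, adjusted p = 0.0452), from 26, 25 and 70 reads to 31 to 88. Those 22Rv1 groups overlapped in CPM. The call was lost without CTRL replicate 3 (-0.43, adjusted p = 0.474), without any 1 of the CPSF1 sh1 libraries or CPSF1 sh2 replicates 1 and 2 (0.0509 to 0.0853), without TMM factors (-0.45, 0.262) and with summed library sizes (-0.20, 0.659). The difference between LNCaP95 and 22Rv1 was 2.31 (adjusted p = 7.37e-05).

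ENO1 had 42, 28 and 24 downstream reads in LNCaP95 controls, 83, 60 and 98 with CPSF1 sh1 and 102, 132 and 91 with CPSF1 sh2. That rise of 0.73 narrowly missed the threshold (SE 0.293, edgeR adjusted p = 0.0527), and it passed without LNCaP95 CTRL replicate 1 (0.93, 0.0377) or CPSF1 sh1 replicate 2 (0.82, 0.0219), without TMM factors (1.07, 0.00277) and with summed library sizes (1.67, 2.09e-05). LNCaP (0.22) and 22Rv1 (0.08) did not pass.

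TPI1 was called lower downstream in 22Rv1 (-0.67, SE 0.213, edgeR adjusted p = 0.0266), from 63, 56 and 95 reads to 96 to 161 in the deeper knockdown libraries, or from 271.2 ± 55.26 to 176.5 ± 32.09 CPM, with 5 of 6 knockdown libraries below all controls. The call was lost without CTRL replicates 1 or 3 or any 1 CPSF1 sh2 library (adjusted p from 0.0548 to 0.103), without TMM factors (-0.41, 0.208) and with summed library sizes (-0.19, 0.61). As an unscaled percentage of 10 kb plus 3′ UTR reads, TPI1 downstream reads were 2.43 ± 0.773% in these controls and 2.50 ± 0.309% after knockdown. In that share 0 of 6 knockdown libraries lay below all controls. In LNCaP the TPI1 change of -0.63 did not pass (0.127) but did without CTRL replicate 2 (-0.96, 0.0285). Downstream counts of GAPDH were 0 to 7 reads per library and those of PKM 0 to 12, and none of their changes passed. PGAM1 had 1 read in each LNCaP control and 0, 0 and 1 in the 22Rv1 controls, with 0 to 10 and 5 to 18 after knockdown, and no fold change is given there. In LNCaP95, PGAM1 had 0, 12 and 3 reads in controls and 8 to 22 after knockdown (0.56, adjusted p = 0.517). Without LNCaP95 CTRL replicate 2, which held the 12 reads, it was called higher (2.35, 0.0315), as it was with summed library sizes (1.49, 0.0487).

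The ENO2 10 kb count could not be told apart from intron reads of the next gene. This region (chromosome 12, 7033161 to 7043003) shared 95.2% of its bases, 9235 of 9700, with the introns of ATN1 on the same strand, and its reads amounted to 81.5% to 100% (median 97.1%) of the ATN1 intron reads over the 27 libraries. It fell by 1.67 on the log2 scale in LNCaP (SE 0.236, edgeR adjusted p = 3.2e-09) and by 1.40 in LNCaP95 (SE 0.256, 6.61e-06), where summed library sizes left a change of -0.50 that did not pass (0.157). In 22Rv1 it changed by -0.41 (0.216). LNCaP reads were 71, 99 and 97 in controls, 28, 24 and 65 with CPSF1 sh1 and 43, 17 and 53 with CPSF1 sh2. The ATN1 introns, scaled by the library sizes of the intron table, changed by -0.77 (adjusted p = 0.00647), -0.47 (0.0775) and -0.06 (0.899). Both counts hold largely the same reads but are scaled by different library sizes. The gap between both sets of changes is therefore not a difference between the regions, and their sizes depend on the scaling. ATN1 was picked for its position after the values were seen.

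Other 10 kb regions also ran into same-strand introns, those of PKM over 90.5% of their bases (GRAMD2), TPI1 over 76.3% (LRRC23) and LDHA over 62.7% (LDHC). GRAMD2 and LRRC23 were likewise picked for position. LDHC encodes the testis-specific lactate dehydrogenase, and its introns share 6015 of the 9597 bases of the LDHA region. LDHC intron reads rose in all 3 lines, from 3 to 9, 5 to 13 and 2 to 5 reads in the controls of LNCaP, LNCaP95 and 22Rv1 to 26 to 69, 84 to 169 and 20 to 106 after knockdown. The log2 fold changes were 3.09 (SE 0.368, edgeR adjusted p = 3.06e-07), 4.10 (SE 0.341, 7.41e-10) and 2.60 (SE 0.521, 0.00317), and each shRNA alone passed in each line. In the LDHC 3′ UTR no control library held a read, whereas knockdown libraries held 1 to 9, 9 to 33 and 1 to 6 reads. Reads of the LDHA 10 kb region in these introns were counted for both genes.

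**Figure D3:**
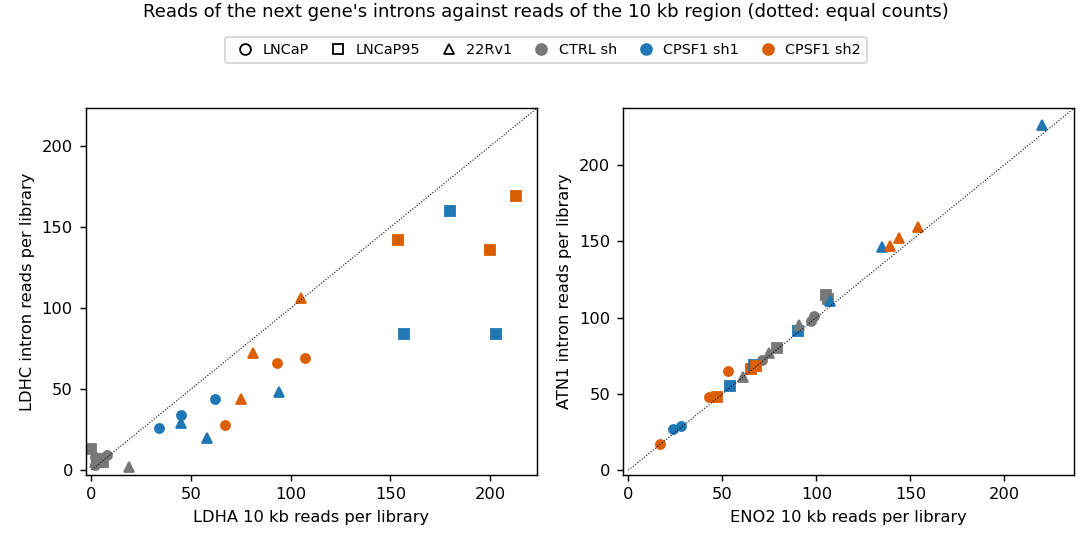
Reads per library in the introns of the next gene (y axis) against reads in the 10 kb region (x axis), for LDHA with LDHC and for ENO2 with ATN1, with shapes for lines, colours for shRNAs and a dotted line for equal counts. ENO2 points lie along the dotted line, so both counts hold largely the same reads, and LDHA points separate controls, all with at most 19 reads, from knockdown libraries, all with at least 34.

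Downstream use relative to the 3′ UTR of the same gene was tested as the change in the ratio of both scaled counts. Each count was scaled by its own table, so a rise in a library's total of 10 kb reads is taken out. A ratio that did not pass can therefore go with a higher unscaled share of 10 kb among 10 kb plus 3′ UTR reads. In 22Rv1, ENO1 gave 0.38 (edgeR adjusted p = 0.581) with shares of 0.549% in controls and 1.03% after knockdown. PGK1 gave -0.13 (0.849) there, with 1.89% and 2.50%. Called higher were PGK1, LDHA and LDHB in LNCaP, PGK1, ENO1, LDHA and LDHB in LNCaP95, and LDHA and LDHB in 22Rv1, or 3, 4 and 2 of 9 genes against backgrounds of 8.39%, 21.2% and 6.61%, and none was lower (background 1.95%, 6.77% and 0.813%). The median change of the 9 genes was 0.97, 1.13 and 0.38, and that over all genes 0.30, 0.53 and 0.33. LDHA changed by 4.11 (SE 0.487, edgeR adjusted p = 7.16e-07), 5.97 (SE 0.49, 1.22e-10) and 2.34 (SE 0.4, 0.000228) on the log2 scale. LDHB changed by 3.32 (SE 0.647, 0.000639), 3.38 (SE 0.539, 1.37e-05) and 2.65 (SE 0.392, 3.49e-05).

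In LNCaP95 the PGK1 ratio changed by 3.43 (SE 0.406, edgeR adjusted p = 1.04e-07), with the 3′ UTR lower and the 10 kb region higher. The LNCaP change of 1.38 (SE 0.351, 0.00857) came with a 10 kb count that did not pass by itself, and the call was lost without CTRL replicate 1 (1.15, 0.0784) or replicate 3 (1.29, 0.0538). The ENO1 ratio changed by 2.13 in LNCaP95 (SE 0.322, 5.77e-06). ENO2 ratios did not pass, but did without CPSF1 sh2 replicate 2 in LNCaP (1.27, 0.0238) and without CPSF1 sh1 replicate 3 in LNCaP95 (0.92, 0.0443), and PGAM1 did in LNCaP95 without CTRL replicate 2 (2.76, 0.0098). ENO2 also passed with summed library sizes in LNCaP (1.48, 0.0226) and LNCaP95 (1.80, 0.000783) and without TMM factors in LNCaP95 (0.98, 0.0268). With summed library sizes TPI1 (1.38, 0.0105), PGAM1 (2.12, 0.00965) and PKM (2.13, 0.00467) passed in LNCaP95 as well. PGAM1 in 22Rv1, with no more than 1 read in any control, entered this test only through its knockdown libraries. Its passing with both of these settings is therefore not counted as a result. The share of higher among all ratio calls, 81.1%, 75.8% and 89.1% in LNCaP, LNCaP95 and 22Rv1, was 96.4%, 97.1% and 99.5% with summed library sizes.

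For the genes whose ratio was called higher, downstream ends remained a small part of the reads. As a percentage of 10 kb plus 3′ UTR reads, LDHA went from 0.0418 ± 0.0394% (SD, n = 3) to 1.05 ± 0.633% (n = 6) in LNCaP, from 0.0102 ± 0.01% to 1.42 ± 0.581% in LNCaP95 and from 0.177 ± 0.128% to 1.26 ± 0.0984% in 22Rv1. LDHB went from 0.113% to 1.43%, from 0.185% to 3.84% and from 0.244% to 2.22%. PGK1 reached 1.27 ± 0.691% in LNCaP95 from 0.0539 ± 0.0268%, and ENO1 1.21 ± 0.316% from 0.134 ± 0.011%. All 6 knockdown libraries exceeded all controls in this share for 5 of 9 genes in LNCaP (PGK1, ENO1, ENO2, LDHA and LDHB), 7 in LNCaP95 (those and TPI1 and PKM) and 4 in 22Rv1 (PGAM1, PKM, LDHA and LDHB), against backgrounds of 18.3%, 40% and 24.3%. In 22Rv1, PGAM1 passed the 10 kb filter only through its knockdown libraries. The ENO2 share, whose downstream reads cannot be told apart from ATN1 introns, was far higher, at 32.0% and 56.4% in LNCaP controls and knockdown, 24.9% and 53.4% in LNCaP95 and 22.0% and 24.2% in 22Rv1.

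**Figure D4:**
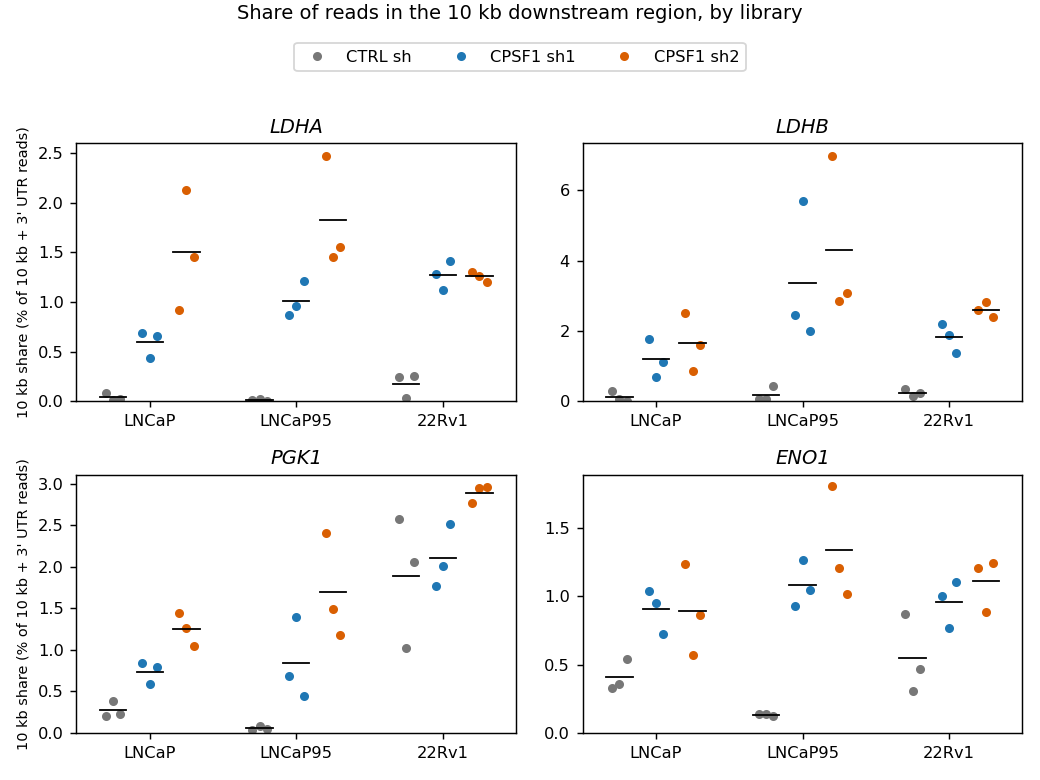
The 10 kb share, in percent of 10 kb plus 3′ UTR reads (linear axis from 0), is plotted per library for LDHA, LDHB, PGK1 and ENO1, grouped by line and coloured by shRNA, with black bars for group means. LDHA and LDHB controls lie near 0 in each line and below all knockdown points, and for PGK1 in 22Rv1, controls and knockdown points overlap.

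Intron reads gave no higher call for any of the genes tested (background 8.7%, 13% and 2.62% in LNCaP, LNCaP95 and 22Rv1), nor did CDS reads (background 3.8%, 7.51% and 0.567%). TPI1, GAPDH and ENO2 did not pass the filter in introns, and TPI1, PGK1, PGAM1 and ENO2 did not pass in CDS. In LNCaP95 introns, PGK1 (-1.53), PGAM1 (-0.81), ENO1 (-1.19) and PKM (-0.79) were lower, 4 of the 6 tested against a background of 10.8%. In LNCaP, PGK1 introns were lower (-0.84, edgeR adjusted p = 0.00882, background 5.62%), a call that was lost without CTRL replicate 1 (0.0889), and no 22Rv1 intron count passed (background 1.75%). PGAM1 in LNCaP95 was lost without CTRL replicate 3 (0.078). In LNCaP95 CDS, ENO1 (-1.03, adjusted p = 0.000599) and LDHA (-1.06, 0.0261) were lower, 2 of 5 against a background of 4.99%, while LNCaP and 22Rv1 had no lower call (background 3.31% and 0.445%). LDHA was lost without CTRL replicate 1, CTRL replicate 2 or CPSF1 sh2 replicate 1 (0.0586 to 0.143). The intron to 3′ UTR ratio did not pass for any of the 6 genes tested (edgeR, background of higher and lower calls 2.39% and 1.29% for LNCaP, 5.22% and 8.91% for LNCaP95, and 0.357% and 0.0649% for 22Rv1). The CDS to 3′ UTR ratio did not pass for any of 5 (0.0219% and 0.11%, 0.261% and 0.523%, and 0% and 0.0218%).

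Summed over the 4 tables, the reads of PGK1, ENO2 and PKM were lower in LNCaP (3 of 9, background 13.5%), those of all but LDHB in LNCaP95 (8 of 9, background 16.8%) and those of PGK1 (-0.71) and LDHA (-0.64) in 22Rv1 (2 of 9, background 2.99%). The 22Rv1 LDHA call was lost without CTRL replicate 2 (-0.38, edgeR adjusted p = 0.198), CTRL replicate 3 (0.0959) or CPSF1 sh1 replicate 3 (0.0542). The PKM call in LNCaP was lost without CTRL replicate 1 (0.0788), and that of PGAM1 in LNCaP95 without CTRL replicate 2 (0.0517). Calls were gained in LNCaP for ENO1 without CPSF1 sh2 replicate 2 (-0.47, 0.00851) and LDHA without CPSF1 sh1 replicate 2 (-0.43, 0.0306), and in 22Rv1 for ENO1 (-0.55, 0.0141) and GAPDH (-0.56, 0.0445) without CTRL replicate 2. LDHB gave -0.02, 0.06 and -0.18 in LNCaP, LNCaP95 and 22Rv1, none of which passed.

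The lines differed in these enzymes before knockdown. LNCaP95 controls had more 3′ UTR reads than LNCaP controls for 6 of 9 genes (background 19.1%), led by ENO1 (1.93 on the log2 scale), PGK1 (1.79) and LDHA (1.10), and fewer for LDHB (-0.42, background 20.2%). Against LNCaP, 22Rv1 controls had more of ENO2 and LDHB (both 0.95, background 23.9%) and fewer of PGK1 (-1.52), PKM (-1.01), ENO1 (-0.96), PGAM1 (-0.71) and LDHA (-0.67), 5 of 9 against a background of 23.2%. LNCaP95 exceeded 22Rv1 for 6 of 9 genes (background 26.5%), most for PGK1 (3.31) and ENO1 (2.89), and was lower for ENO2 (-0.65) and LDHB (-1.37, background 28.1%). The order LNCaP95, LNCaP, 22Rv1 held for PGK1, PGAM1, ENO1 and LDHA with each step called, and LDHB had the opposite order. In LNCaP95 against LNCaP, LDHB (adjusted p from 0.0513 to 0.0748) and TPI1 (0.059 to 0.0667) each lost their call when 1 of 3 control libraries was left out, and GAPDH when LNCaP CTRL replicate 3 was (edgeR, 0.0565). For LDHB these were LNCaP CTRL replicate 1 and LNCaP95 CTRL replicates 1 and 3, and for TPI1 LNCaP CTRL replicates 2 and 3 and LNCaP95 CTRL replicate 1. In LNCaP95 against 22Rv1, GAPDH lost its call without LNCaP95 CTRL replicate 1 or 22Rv1 CTRL replicate 2 or 3 (0.0556 to 0.0685) and ENO2 without LNCaP95 CTRL replicate 2 (0.0765). TPI1 gained one in 22Rv1 against LNCaP without LNCaP CTRL replicate 1 (0.54, 0.0196).

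The balance of isozymes was taken as the log2 ratio of 3′ UTR reads within each library, which does not depend on scaling. For LDHA over LDHB the controls averaged 2.66 ± 0.196 in LNCaP, 4.19 ± 0.0478 in LNCaP95 and 1.03 ± 0.245 in 22Rv1 (SD, n = 3 each), or linear ratios of 6.32, 18.2 and 2.04. For ENO1 over ENO2 they were 4.64, 6.30 and 2.67, or 25, 78.6 and 6.37. Neither ratio overlapped between any 2 lines. The exact permutation p was 0.1 for each pair of lines, the smallest that 20 splits of 3 against 3 allow.

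After knockdown the LDHA to LDHB ratio was lower in LNCaP95, by 0.99 on the log2 scale (two-sided exact permutation p = 0.0119, 0.0238 after adjustment over 6 tests), and in 22Rv1, by 0.42 (the same values of p), with all 6 knockdown libraries below all controls in both. The smallest p that 84 splits allow is 0.0119. In LNCaP it went from 2.66 to 2.33, with 4 of 6 knockdown libraries below all controls (exact permutation p = 0.0714, adjusted 0.0857). The ENO1 to ENO2 ratio rose in LNCaP by 2.28, from 25 to linear means of 155.2 with CPSF1 sh1 and 94.8 with CPSF1 sh2 (exact permutation p = 0.0119, adjusted 0.0238). In LNCaP95 it differed by 0.81 (exact permutation p = 0.0476, adjusted 0.0714), with 5 of 6 knockdown libraries above all controls, and in 22Rv1 by -0.22 (exact permutation p = 0.44). Leaving out a control leaves 28 splits, whose smallest p of 0.0357 cannot pass after adjustment.

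**Figure D5:**
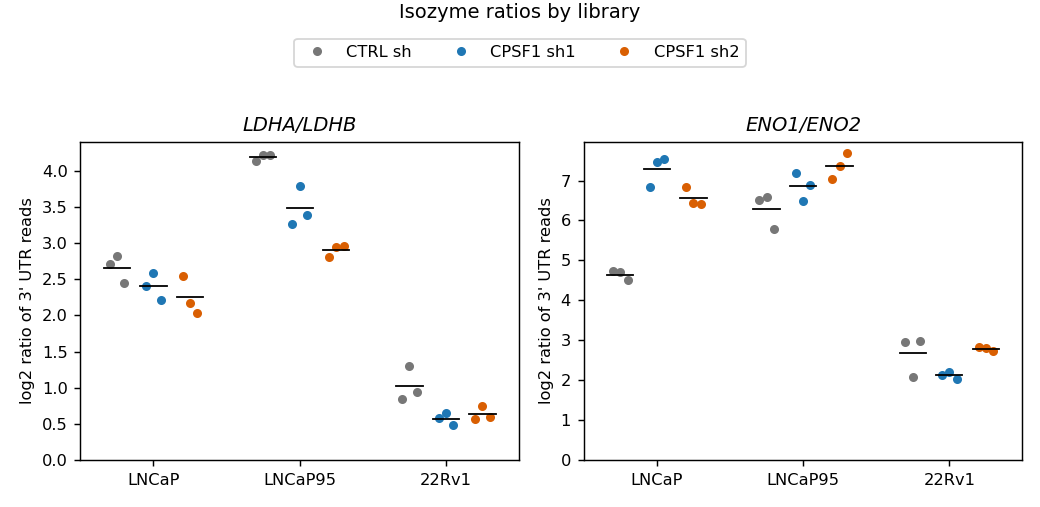
Log2 ratio of 3′ UTR reads per library for LDHA over LDHB and ENO1 over ENO2, grouped by line and coloured by shRNA, with black bars for group means. LDHA over LDHB is highest in LNCaP95 controls, at 4.19 on average, and lower with both shRNAs there, and ENO1 over ENO2 in LNCaP rises from 4.64 to 6.92.

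Other genes of the pathway were counted from lists of neighbouring steps. Of 11 upper glycolysis genes, which lead from glucose to the triose phosphates, 4 of 8 tested had fewer 3′ UTR reads in LNCaP and 1 had more, 6 of 8 had fewer in LNCaP95, and 1 of 9 had fewer in 22Rv1, beside backgrounds of 10.1%, 15.2% and 0.791% lower. The gene lower in all 3 lines was ALDOC, an aldolase (-2.06, -2.71 and -1.21). Downstream, 4 of 9, 4 of 10 and 2 of 11 were higher (background 9.52%, 17.6% and 7.25%) and 0, 1 and 1 lower (5.2%, 10.1% and 2.77%), the higher ones including HK1, a hexokinase (2.50, 3.99 and 2.09), and GPI, glucose-6-phosphate isomerase (1.33, 2.86 and 1.22), in all 3 lines. Of 16 genes for transport and oxidation of pyruvate and lactate, 6 of 14, 7 of 13 and 2 of 15 had fewer 3′ UTR reads, beside the same backgrounds, and 2, 1 and 0 had more (background 8.24%, 15.2% and 0.678%). In their 10 kb regions 4 of 14, 5 of 14 and 1 of 15 were higher (background 9.52%, 17.6% and 7.25%) and 2, 2 and 0 lower (5.2%, 10.1% and 2.77%). PDK1, a kinase that inhibits pyruvate dehydrogenase, was lower in all 3 lines (-1.44, -1.46 and -1.55), and DLAT, a subunit of pyruvate dehydrogenase, was higher in all 3 in the 10 kb table (2.13, 3.02 and 3.18). Of 10 further isozymes of the lower steps 3, 4 and 4 passed the 3′ UTR filter, and there LDHD fell in LNCaP95 (edgeR, background of lower calls 15.2%). LDHC, with no read in any control, passed that filter in LNCaP95 only through its knockdown libraries. Its higher call there is therefore not counted as a result.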

How the data were processed

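PAC-seq read counts per gene were taken from the 4 tables deposited by the authors, with raw counts for 3′ UTRs, introns, CDS and 10 kb downstream regions in 27 libraries, replicates separate and not normalized. As the authors' methods describe, poly(A)-trimmed reads were mapped to hg19 and counted by their 3′-most base on the strand of the gene. The submitters' processing notes name HISAT2 2.1.0 and Subread 2.0.3. Priming inside A-rich stretches can add to such counts, and reads without molecular identifiers can be PCR copies.

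Here, each line's 9 libraries were fitted by quasi-likelihood in edgeR 4.0.16 (R 4.3.3) over genes averaging above 2 CPM, 3 CTRL sh against 6 CPSF1 sh libraries, each table with its own library sizes and TMM factors, and p-values were adjusted by Benjamini-Hochberg over all genes tested (threshold 0.05). Printed CPM values were scaled over the 27 libraries of a table. Ratios between tables used a region-by-knockdown term, and isozyme ratios an exact permutation test. Scripts were tested on simulated counts. Named were the 9 genes, CPSF1, genes of the pathway lists past the threshold in all 3 lines or in a count of 5 or fewer, the 5 genes nearest in profile, and neighbours where stated. Members and lists were chosen with earlier results of these data known. Alternatives were DESeq2 1.42.0, other scalings and filters, the replicate number as a block, and leaving out each library. For the summed reads, the control levels between lines and the block for each shRNA, some of these were added after seeing the data. 0 columns of per-sample values were left unmapped. Replicate numbers were checked for pairing and did not meet the criteria. Poly(A) signals were read from GRCh37 at the transcript ends of the counted regions. The markers examined were luminal, basal, neuroendocrine and stromal lists.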

Additional observations from a re-analysis of the deposited data

Results flagged for a closer look

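Several knockdown effects differed between cell lines by a test of the difference itself (edgeR line-by-knockdown terms, log2 scale, over 27 libraries). In the 3′ UTR table, LNCaP95 minus LNCaP gave -1.11 for GAPDH (adjusted p = 0.013), -0.593 for PGK1 (0.0418), -0.501 for PGAM1 (0.0305) and -0.999 for ENO1 (0.0296). LNCaP95 minus 22Rv1 gave -1.14 for GAPDH (0.0102), -1.21 for PGK1 (6.77e-05), -0.488 for PGAM1 (0.0352), -1.1 for ENO1 (0.0157) and -2.28 for ENO2 (4.04e-05), and 22Rv1 minus LNCaP gave 2.68 for ENO2 (1.1e-05). In the 10 kb table, LNCaP95 minus 22Rv1 gave 2.31 for PGK1 (7.37e-05) and 3.24 for LDHA (0.000195). There, 22Rv1 minus LNCaP gave 1.29 for ENO2 (0.0297, background of higher terms 0.454%), a count made up largely of reads that also fall in ATN1 introns, and with summed library sizes it did not pass (1.27, 0.061).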

How the results depend on the processing

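No called log2 value of the 9 genes changed sign under any alternative (0 of 964 values), whereas 72 of 1407 values that had not passed did. Values past the threshold lie away from 0, so few changes of sign could arise among them. With 1 library left out, 51 of the called values no longer passed. The LDHA and LDHB calls in the 10 kb table passed under every alternative that could be fitted for them. Low downstream counts in controls limit the size of those changes, and 22Rv1 CTRL replicate 1 was the shallowest library. Where a count of genes changed, the cause was not tested. With summed library sizes, 2.04% of all genes were lower in the 3′ UTR of 22Rv1, against 0.791%. Lower 10 kb calls were then 1.63% of all genes in LNCaP95 and 0.397% in 22Rv1, and 0.988% in 22Rv1 without TMM factors. Where no share is printed for a changed setting or a library left out, none was taken, and the count describes the 9 genes alone. With DESeq2, members lower in the 3′ UTR of 22Rv1 were 2 (2 with CPSF1 sh1 alone), LNCaP introns with CPSF1 sh1 alone gave 0, and line differences gave 2 higher in the 3′ UTR for 22Rv1 minus LNCaP, 1 higher in the 10 kb regions for LNCaP95 minus LNCaP, and 1 lower there for 22Rv1 minus LNCaP and for LNCaP95 minus 22Rv1. With library sizes summed over the 4 tables, LNCaP introns gave 2 lower (2 with CPSF1 sh2 alone), the 10 kb table of LNCaP95 gave 5 higher and 0 lower (0 with either shRNA alone) and that of 22Rv1 0 lower (0 with either shRNA alone), the 3′ UTR of 22Rv1 gave 2 lower, the ratio in LNCaP95 8 higher (46.8% of all genes were then higher, against 21.2%, and 35.6% against 17.6% in its 10 kb table), and line differences in the 10 kb regions 1 higher for LNCaP95 minus LNCaP and 0 higher for 22Rv1 minus LNCaP. Without TMM factors, 0 were lower in the 10 kb table of 22Rv1 and 2 in the 3′ UTR for LNCaP95 minus LNCaP. With no filter, 2 were lower in the 3′ UTR and 1 in the 10 kb table of 22Rv1, and with more than 2 CPM required in every library, 1 was higher in the 10 kb table of LNCaP. The share of higher among all 3′ UTR calls, 45%, 50.1% and 46.2% in LNCaP, LNCaP95 and 22Rv1, was 49.6%, 36.8% and 21.1% with summed library sizes and 64.1%, 70.7% and 61.6% without TMM factors.

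Libraries with the same replicate number deviated from their group means with correlations of -0.257 to 0.392, so the numbers were not taken as pairs. All 3 pairs were over 0.1 in 1 of 9 pairs of groups, 22Rv1 CTRL sh with CPSF1 sh1 (0.392, 0.253 and 0.118), and there no call of CPSF1 sh1 alone changed with the block, a fit added after seeing the data. In the 10 kb table of 22Rv1, PGK1 with both shRNAs did not pass (-0.70, edgeR adjusted p = 0.0772). With the replicate number as a block, 1 gene was lower in the 10 kb table of 22Rv1 and 2 in the 3′ UTR for LNCaP95 minus LNCaP (GAPDH and ENO1), 4 for LNCaP95 minus 22Rv1 (without PGAM1, -0.494, 0.0629), 0 in LNCaP introns with CPSF1 sh1 alone and 1 in the 10 kb table of 22Rv1 with CPSF1 sh2 alone. With CPSF1 sh2 alone in the LNCaP95 3′ UTR, PGAM1 (0.0709) and PKM (0.0681) did not pass, and PKM in the LNCaP 3′ UTR did not pass (-0.52, edgeR adjusted p = 0.0638). The isozyme differences were unchanged under the block at -0.991 and -0.423 (LDHA over LDHB in LNCaP95 and 22Rv1) and 2.28 (ENO1 over ENO2 in LNCaP), but the fewer splits within numbers could not pass after adjustment.

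Leaving out 1 library at a time gave 2 to 5, 5 to 8 and 1 to 2 lower genes in the 3′ UTR of LNCaP, LNCaP95 and 22Rv1, 0 to 1 and 3 to 4 in introns of LNCaP and LNCaP95, and 1 to 2 in CDS of LNCaP95. In the 10 kb table it gave 1 to 2 lower in LNCaP, 3 to 4 higher in LNCaP95 and 0 to 2 lower in 22Rv1. The ratio gave 2 to 4 higher in LNCaP and 4 to 5 in LNCaP95, and the summed reads 2 to 4, 7 to 8 and 1 to 3 lower. Between control lines it gave 4 to 6 higher and 0 to 1 lower (LNCaP95 minus LNCaP), 5 to 6 higher and 1 to 2 lower (LNCaP95 minus 22Rv1) and 2 to 3 higher (22Rv1 minus LNCaP). LDHA over LDHB ranged from -0.44 to -0.248, -1.11 to -0.915 and -0.516 to -0.284, and ENO1 over ENO2 from 2.16 to 2.38, 0.555 to 0.965 and -0.516 to -0.0619.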

Other observations

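Among 7407 other genes that averaged 10 CPM or more per line, the 3′ UTR profiles nearest to the mean of the 9 genes over 6 contrasts (3 lines by 2 shRNAs) were those of RRAGD, HSD11B2, NARF, ATP5G2 and KDM6B, with root mean square differences of 0.0924 to 0.131 on the log2 scale. These contrasts share controls within a line, and the likeness is a description. With CPSF1 sh1 and CPSF1 sh2, RRAGD gave -0.86 and -0.53 for LNCaP, -1.06 and -1.20 for LNCaP95, and -0.07 and -0.40 for 22Rv1. The 9 genes averaged -0.80 and -0.50, -0.998 and -1.04, and -0.16 and -0.30. LDHAL6A, a further lactate dehydrogenase-like gene, had more intron reads in LNCaP (1.67, edgeR adjusted p = 0.00845) and LNCaP95 (2.67, 5.88e-05), and in 22Rv1 the value was 0.14 (0.908). It was picked after its values were seen.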
